A study of Mus musculus with 4 samples.

Results

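Chromatin accessibility was examined at 39 genes of autophagy and lysosome control in the mouse heart, measured by ATAC-seq, an assay that reads accessible DNA from where a transposase can insert adapters. The genes were chosen by name, with earlier results of these data known. Their peaks are all deposited peaks that overlap the gene body or lie within 10 kb of either end. All 39 genes had at least 1 peak, and together they held 243 of the 87948 peaks, between 1 and 29 per gene with a median of 4. Against 2 libraries of Carm1 mutant hearts stood 2 libraries of wild-type hearts, all at postnatal day 14 per the labels, while the design text of the series speaks of neonatal hearts. The product of Carm1 methylates arginines of histones and of other nuclear proteins and is known as a coactivator of transcription. The labels give the tissue as heart and give neither the mutant allele, a Cre driver, the strain nor the number of animals behind a library. The spread behind each p-value is therefore that between these libraries, which may be partly technical. The libraries held from 15945420 to 19091969 counts over all peaks.

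Autophagy encloses cytoplasm in a double membrane and delivers it to the lysosome for breakdown. A kinase complex around ULK1 starts the process, a lipid kinase complex around Beclin 1 and VPS34 marks the growing membrane with phosphatidylinositol 3-phosphate, and ubiquitin-like conjugation attaches LC3 and GABARAP proteins to it. Lysosomal genes share regulation by TFEB and TFE3, which bind E-box-like elements, while PIKfyve with its partners VAC14 and FIG4 sets the phosphoinositide content of late endosomes and lysosomes. In heart muscle, autophagy clears damaged mitochondria and supplies nutrients in the neonatal period.

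Accessibility differed between the genotypes at 13 of the 243 peaks, 8 of them higher and 5 lower in the Carm1 mutant. Of the 8 higher peaks 4 lay within Fig4, and the other 4 lay at Rb1cc1, Atg10, Vac14 and Ctsb. The 5 lower peaks lay at Foxo3 (2), Atg7, Vac14 and Lamp1. The quasi-likelihood test of edgeR was run over all 87948 peaks, and a peak was called at an adjusted p (Benjamini-Hochberg) under 0.05. Of all peaks 3.05% were called higher and 2.45% lower, 5.5% in all. The members' shares of 3.29% and 2.06%, 5.35% in all, lay near that background, as they did near the 2.77% higher and 2.04% lower among peaks in the window of any protein-coding gene. Without the 5 Fig4 peaks 3.78% of 238 peaks were called. The median log2 fold change (Carm1 mutant over wild type) was 0.0026 over the members' peaks and -0.00069 over all peaks. Both mutant libraries lay above both wild-type libraries at 65 member peaks and below them at 50, and the values overlapped at 128; over all peaks 25.8% lay above and 25.7% below. At an unadjusted p under 0.05, 47 of the 243 member peaks were past the line, against 21.8% of all peaks. No peak was called at 31 of the 39 genes, a count for which the share over all protein-coding genes was not computed.

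**Figure D1:**
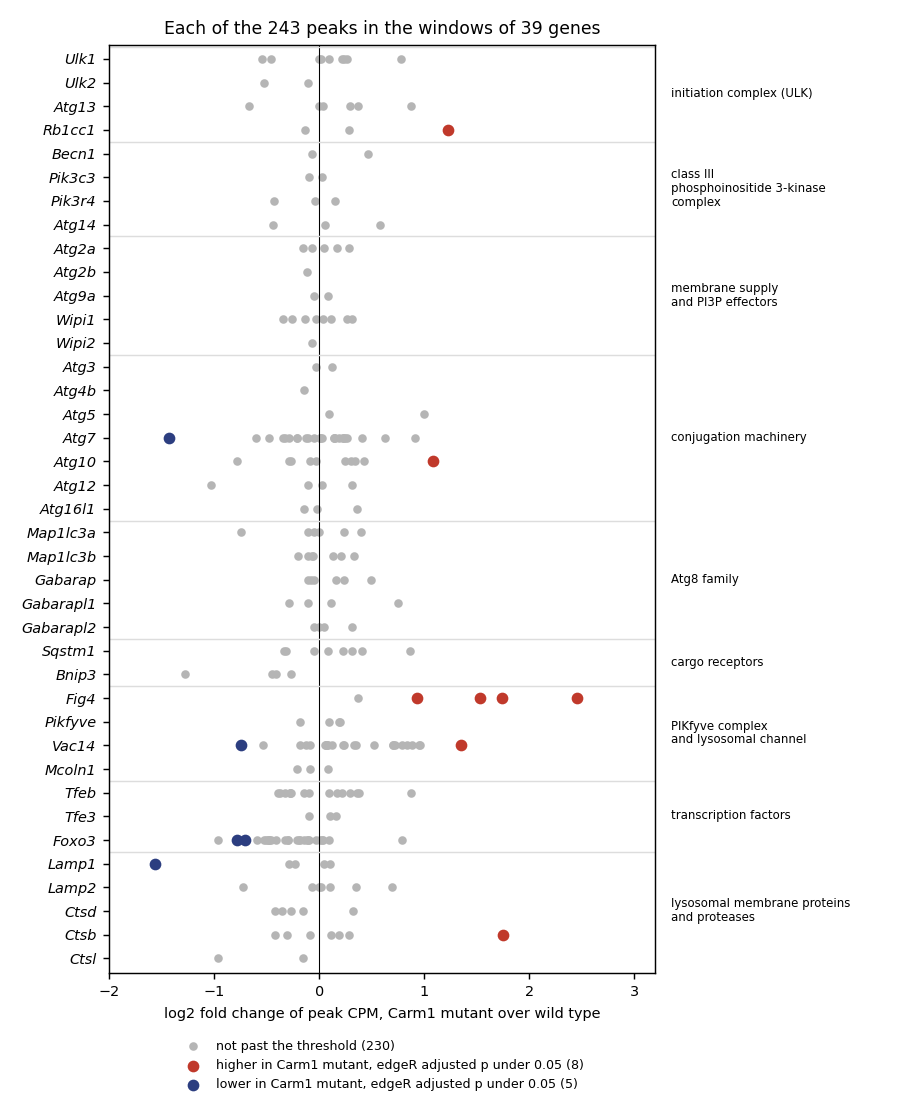
Each point is 1 of the 243 peaks, placed by its log2 fold change (Carm1 mutant over wild type, horizontal axis) in the row of its gene, with genes grouped by role. The coloured points are the 8 higher and 5 lower calls, and 4 of the 5 Fig4 points are among the higher ones.

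The 13 called peaks lay away from promoters. A promoter peak here is one within 1 kb of a RefSeq transcription start, or within 1 kb of either gene end for the 7 genes Rb1cc1, Becn1, Pik3c3, Atg12, Atg16l1, Map1lc3a and Ctsb. Of 41 promoter peaks none was called by edgeR (3 at an unadjusted p under 0.05; DESeq2 and limma voom also called none), and across all protein-coding genes 1.26% of 11901 peaks near a start were called, 0.983% higher and 0.277% lower. Of the other 202 member peaks 6.44% were called, against 5.57% of such peaks near all protein-coding genes (3.15% higher and 2.42% lower). Inside gene bodies 7 peaks were higher and 4 lower of 142, and in the flanks 1 was higher and 1 lower of 60. Nothing particular to these genes can be read from these shares.

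Promoter accessibility was close to equal in the 2 genotypes, as it was near the starts of protein-coding genes in general. The quartiles of the log2 fold change were -0.09 and 0.10 over the members' strongest promoter peaks. Over 11901 peaks near any protein-coding start they were -0.11 and 0.18. The strongest promoter peak was taken for 37 genes, 31 at a start site and 6 at a gene end. Atg7 and Pik3c3 had none by this rule. The start used for Atg7 follows position 114671095 of chromosome 6, inside a gene body that begins at 114643127. The 5′ end of Atg7 was therefore not examined as a promoter, and any peak there was counted with the gene body or flank. The log2 fold changes of the 37 peaks lay between -0.27 (Bnip3) and 0.47 (Becn1). Of these, 30 of 37 lay within 0.2 of 0, and the lowest edgeR adjusted p was 0.18. The values overlapped between genotypes at 25, both mutant libraries lay above both wild-type libraries at 8, and below at 4. Of the peaks near the start of any protein-coding gene 22.1% lay above and 16.8% below. Another protein-coding gene's window held 18 of these 37 peaks, so their reads cannot be assigned to 1 gene. Per kb of peak width, mean accessibility over the 4 libraries ran from 9.84 CPM at Map1lc3b to 59.8 CPM at Wipi1, where CPM is the count relative to the TMM-scaled library total. Wipi1 encodes a reader of phosphatidylinositol 3-phosphate, and its promoter peak had 146.5 and 156.7 CPM in the mutant and 148.9 and 160.4 CPM in the wild type. Its libraries overlapped, as did those of Foxo3, the broadest promoter peak, at 163.7 and 151.0 CPM in the mutant and 155.1 and 157.9 CPM in the wild type.

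**Figure D2:**
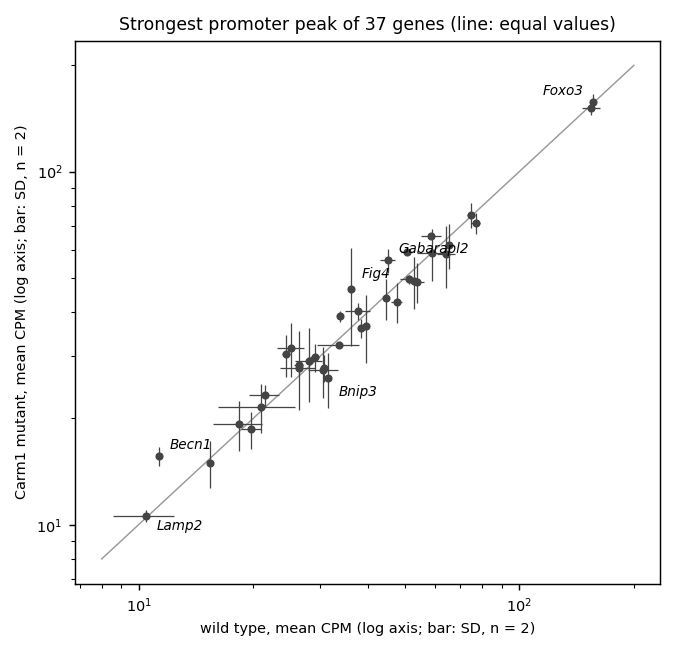
Mean CPM of the strongest promoter peak of 37 genes in the Carm1 mutant (vertical, log axis) and in the wild type (horizontal, log axis), with SD bars over 2 libraries each and a line of equal values. The points follow the line from Lamp2, with a mean of 10.5 CPM over all libraries, to Foxo3 with 156.9 CPM, and none was called.

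The promoters of several members hold the E-box core that TFEB and TFE3 recognise, and they are shown because their accessibility can be read against that sequence. RefSeq (GRCm38.p6, the assembly of mm10) gives a start for 32 of the 39 genes. In the 250 bases before it, the palindrome CACGTG, the same on both strands, was found for 8 of the 32 genes (25%): Atg3, Atg5, Atg7, Bnip3, Mcoln1, Lamp1, Ctsd and Ctsl. For Atg7 these bases lie inside the gene body and not before its 5′ end. CACGTG was found for 6.86% of 27025 genes in the same set. That set was neither limited to protein-coding genes, as the members are, nor matched for base composition. The longer TCACGTGA, which contains it and is the core of the lysosomal gene element known as CLEAR, was found for Atg3, Mcoln1 and Ctsd (9.38%), against 0.907% of all genes. The FOXO-type sequence GTAAACA or its reverse complement TGTTTAC was found for 0 of 32, against 3.54%. A match is a description of the letters and not a site of binding. The 250 bases before the start follow, 5′ to 3′, with each CACGTG in capitals; Fig4 holds none.
Mcoln1 (chr8:3500269-3500518, plus strand): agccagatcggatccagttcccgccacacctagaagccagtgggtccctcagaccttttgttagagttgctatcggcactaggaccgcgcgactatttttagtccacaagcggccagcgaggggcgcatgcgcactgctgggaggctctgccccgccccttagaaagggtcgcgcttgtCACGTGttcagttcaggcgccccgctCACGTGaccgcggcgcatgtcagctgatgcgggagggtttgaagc
Ctsd (chr7:142387828-142388077, minus strand): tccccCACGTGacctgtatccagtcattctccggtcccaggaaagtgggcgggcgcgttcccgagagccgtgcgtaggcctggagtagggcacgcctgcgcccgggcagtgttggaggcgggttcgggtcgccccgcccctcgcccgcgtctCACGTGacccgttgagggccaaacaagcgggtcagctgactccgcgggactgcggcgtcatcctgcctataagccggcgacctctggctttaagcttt
Lamp1 (chr8:13158911-13159160, plus strand): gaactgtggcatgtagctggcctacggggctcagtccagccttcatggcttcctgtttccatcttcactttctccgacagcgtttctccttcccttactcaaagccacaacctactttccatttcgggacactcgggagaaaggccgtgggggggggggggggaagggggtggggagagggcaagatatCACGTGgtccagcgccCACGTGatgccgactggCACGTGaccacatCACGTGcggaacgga
Bnip3 (chr7:138909507-138909756, minus strand): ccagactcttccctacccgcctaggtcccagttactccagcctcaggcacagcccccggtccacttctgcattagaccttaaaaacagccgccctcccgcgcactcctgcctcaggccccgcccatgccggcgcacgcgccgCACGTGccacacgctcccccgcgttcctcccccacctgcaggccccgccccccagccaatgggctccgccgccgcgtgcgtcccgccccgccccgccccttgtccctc
Fig4 (chr10:41303242-41303491, minus strand): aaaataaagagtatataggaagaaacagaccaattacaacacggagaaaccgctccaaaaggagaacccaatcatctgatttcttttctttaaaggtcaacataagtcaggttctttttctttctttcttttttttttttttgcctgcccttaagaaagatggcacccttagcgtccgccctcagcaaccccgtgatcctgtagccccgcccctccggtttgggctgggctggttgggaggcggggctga

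Of the promoter peaks over these sequences, those of Mcoln1, Ctsd and Lamp1 overlapped between the genotypes, and those of Bnip3 and Fig4, described with their genes, did not. Mcoln1, which encodes the lysosomal calcium channel TRPML1, had 28.7 and 26.9 CPM in the mutant and 24.4 and 28.3 CPM in the wild type. Ctsd, which encodes the aspartic protease cathepsin D, had 46.7 and 38.9 CPM in the mutant and 48.8 and 46.5 CPM in the wild type. Lamp1, which encodes an abundant lysosomal membrane glycoprotein and has 4 copies of CACGTG, had 24.0 and 19.2 CPM in the mutant and 17.5 and 24.3 CPM in the wild type. For these 3 promoters the values gave log2 fold changes of 0.08 (SE 0.16), -0.15 (SE 0.15) and 0.05 (SE 0.19) and edgeR adjusted p = 0.83, 0.587 and 0.924.

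Among the 4 genes of the initiation complex 1 of 20 peaks was called. It lay beyond the upper-coordinate end of Rb1cc1, which encodes the scaffold FIP200 (chromosome 1, 6279698 to 6280487, mm10), with 5.72 and 8.96 CPM in the mutant against 3.23 and 3.05 CPM in the wild type. Both mutant libraries were above the wild type, and they differed more from each other than the wild-type libraries did. The log2 fold change was 1.23 (SE 0.30, edgeR adjusted p = 0.0213), and the call was lost without mutant replicate 2 (0.11), wild-type replicate 1 (0.0798) or wild-type replicate 2 (0.129). The promoter peak of Rb1cc1 had 66.9 and 50.4 CPM in the mutant and 61.9 and 66.7 CPM in the wild type. Ulk1 and Ulk2, which encode the initiating kinases, and Atg13, which encodes their partner, had no called peak among 17, with log2 fold changes from -0.67 to 0.88, both at Atg13. The strongest of the 4 windows, that of Ulk1, summed to 147.1 and 134.6 CPM in the mutant and 137.2 and 134.8 CPM in the wild type, which overlap.

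No peak of the class III lipid kinase complex (10 peaks) or of the membrane supply genes (17 peaks) was called. Becn1, which encodes Beclin 1, had the promoter peak with the highest log2 fold change of the 37, at 14.96 and 16.28 CPM in the mutant against 11.4 and 11.3 CPM in the wild type. Both mutant libraries were above both wild-type libraries, by 0.47 on the log2 scale (SE 0.20), without passing the threshold (edgeR adjusted p = 0.18). Pik3c3, the gene of the VPS34 kinase, had 2 peaks, with log2 fold changes of 0.02 and -0.10. Pik3r4, which encodes its regulatory subunit VPS15, had 3, from -0.43 to 0.15. Atg14, which encodes the subunit that directs the complex to autophagy, had a window sum of 32.2 and 65.3 CPM in the 2 mutant libraries and of 41.8 and 43.5 CPM in the wild type. Its mutant libraries lay on either side of the wild type. Atg2a and Atg2b (lipid transfer proteins), Atg9a (a lipid scramblase) and Wipi1 and Wipi2 had log2 fold changes from -0.34 to 0.31, the narrowest range of the 9 groups.

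The conjugation genes had 1 higher and 1 lower call among 47 peaks. The lower peak lay within Atg7, which encodes the E1-like enzyme (chromosome 6, 114713645 to 114714037). It lay 42.5 kb beyond the RefSeq start used for this gene, which is itself inside the gene body. It had 2.19 and 3.60 CPM in the mutant against 7.19 and 8.41 CPM in the wild type, with no overlap, a change of -1.43 on the log2 scale (SE 0.30, edgeR adjusted p = 0.00958). None of the other 24 peaks at Atg7 was called; the gene's median log2 fold change was 0.0036, and its window sums of 180.7 and 194.0 CPM in the mutant and 187.1 and 192.2 CPM in the wild type overlapped. The higher peak lay within Atg10, which encodes an E2-like enzyme, 17.4 kb beyond its start (chromosome 13, 91206198 to 91206634), with 5.66 and 9.02 CPM in the mutant against 3.40 and 3.51 CPM in the wild type. Its log2 fold change was 1.09 (SE 0.30, edgeR adjusted p = 0.0358). The Atg7 call was lost without wild-type replicate 2 (0.0836). The Atg10 call was lost without mutant replicate 2 (0.201), wild-type replicate 1 (0.15) or wild-type replicate 2 (0.157), and with DESeq2 (0.0841) or limma voom (0.0529). Atg3, Atg4b, Atg5, Atg12 and Atg16l1, which encode the other conjugation proteins listed, had no called peak among 12.

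The Atg8 family, whose products are attached to the membrane, had no called peak among 27, with a median log2 fold change of -0.0048. Gabarapl2, which encodes a member of the GABARAP branch, had a promoter peak of 52.9 and 59.3 CPM in the mutant against 43.7 and 46.5 CPM in the wild type. Both mutant libraries were higher, by 0.31 on the log2 scale (SE 0.14, edgeR adjusted p = 0.199), short of the threshold. All peaks of Map1lc3a, Map1lc3b, Gabarap and Gabarapl2 also lay in the window of another protein-coding gene, and none of the 4 at Gabarapl1 did.

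Of the 2 cargo receptor genes, Bnip3 had a lower summed accessibility in the mutant and Sqstm1 was not called. Bnip3 encodes a mitochondrial outer membrane receptor of mitophagy that is known as a hypoxia-responsive gene. Its 4 peaks summed to 120.0 and 116.9 CPM in the mutant against 148.4 and 165.2 CPM in the wild type. Both mutant libraries lay below both wild-type libraries, and the log2 fold change was -0.43 (SE 0.09, edgeR adjusted p = 0.0136 over 16369 gene windows). The strongest of the 4, 9.4 kb before the start (chromosome 7, 138918878 to 138920104), had 65.9 and 64.0 CPM in the mutant against 78.0 and 95.2 CPM in the wild type. A peak 2.0 kb beyond the start (138905788 to 138907508) had 23.5 and 28.8 CPM in the mutant against 36.0 and 35.5 CPM in the wild type. The mutant libraries were lower at all 4 peaks without overlap, as they were at 25.7% of all peaks. The 4 include the promoter peak (29.3 and 22.8 CPM in the mutant, 31.7 and 31.1 CPM in the wild type). They also include a weak flanking peak (1.22 and 1.33 CPM in the mutant, 2.66 and 3.51 CPM in the wild type). No single one of the 4 passed the threshold, at edgeR adjusted p from 0.0569 to 0.371. The peak before the start was called without mutant replicate 1 (0.0224) or 2 (0.0381), and the one at 2.0 kb without mutant replicate 2 (0.00952). Without wild-type replicate 2 the window sum had a log2 fold change of -0.36 and was not called (edgeR adjusted p = 0.304), and with the gene body alone it was not called. Of the 10 peaks from 10 to 100 kb outside Bnip3 none was called by edgeR, with a median log2 fold change of -0.54. Sqstm1, which encodes the receptor p62, summed to 111.7 and 112.8 CPM in the mutant against 102.3 and 93.6 CPM in the wild type, a change of 0.17 on the log2 scale (SE 0.10, edgeR adjusted p = 0.407).

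Fig4 had the largest increase of the 39 gene windows. It encodes the phosphatase that acts on the product of PIKfyve. Its 5 peaks summed to 127.6 and 102.9 CPM in the mutant against 59.4 and 59.9 CPM in the wild type, 1.93 times as much. The log2 fold change was 0.92 (SE 0.11, edgeR adjusted p = 0.000163), and the call held whichever library was left out, with log2 fold changes from 0.77 to 1.05. Across the 16369 gene windows 1.95% were called higher and 1.16% lower, 3.11% in all, and among the members Fig4 was the 1 higher and Bnip3 the 1 lower. Both mutant libraries lay above both wild-type libraries in 8 of the 39 windows and below in 3 (Bnip3, Foxo3 and Mcoln1). Of all windows 28.2% lay above and 18.9% below. These counts use CPM on the scaling of the peaks, while the fitted log2 fold changes had a median of 0.0014 over all windows.

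The 4 called peaks of Fig4 all lay inside the gene. The strongest call, 9.2 kb beyond the start (chromosome 10, 41292786 to 41294020), had 44.9 and 45.6 CPM in the mutant against 12.7 and 14.4 CPM in the wild type. It reached 1.74 on the log2 scale (SE 0.16, edgeR adjusted p = 2.86e-05). A peak 13.9 kb beyond the start (41288709 to 41289296) had 14.66 and 13 CPM in the mutant against 8.03 and 6.45 CPM in the wild type, a change of 0.93 on the log2 scale (SE 0.23, edgeR adjusted p = 0.0213). Both pairs of libraries were fully separated.

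The other Fig4 calls were weaker peaks deep in the gene. At 61.8 kb beyond the start (41241036 to 41241400) the values were 6.75 and 5.55 CPM in the mutant against 1.92 and 2.32 CPM in the wild type, a change of 1.53 on the log2 scale (SE 0.31, edgeR adjusted p = 0.00801). At 65.8 kb (41237143 to 41237413) they were 4.56 and 2.33 CPM in the mutant against 0.849 and 0.413 CPM in the wild type, from 75 and 37 counts against 15 and 8. The log2 fold change there was 2.45 (SE 0.47, edgeR adjusted p = 0.00556), with the mutant libraries above the wild type at every one of these peaks. The call at 9.2 kb held whichever library was left out. Without wild-type replicate 1 or 2 the call at 13.9 kb was lost (edgeR adjusted p = 0.0565 and 0.228), that at 61.8 kb without wild-type replicate 1 (0.0613), and that at 65.8 kb without wild-type replicate 2 (0.0648).

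The Fig4 promoter peak, in the region of the sequence printed above, had 56.8 and 36.4 CPM in the mutant and 35.9 and 36.3 CPM in the wild type. Mutant replicate 1 stood well above the other libraries, mutant replicate 2 was close to both wild-type libraries, and the log2 fold change was 0.37 (SE 0.18, edgeR adjusted p = 0.226). It was 0.65 and called without mutant replicate 2 (0.000566), and 0.0096 without mutant replicate 1. The promoter peak also overlaps the gene body of the neighbouring gene Ak9, and the peak at 9.2 kb lies within 10 kb of Ak9. The Ak9 window held no other peak and summed to 101.6 and 82.0 CPM in the mutant against 48.6 and 50.7 CPM in the wild type. That window was called higher as well (0.86 on the log2 scale, SE 0.12, edgeR adjusted p = 0.00044). No peak lay from 10 to 100 kb outside Fig4.

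**Figure D3:**
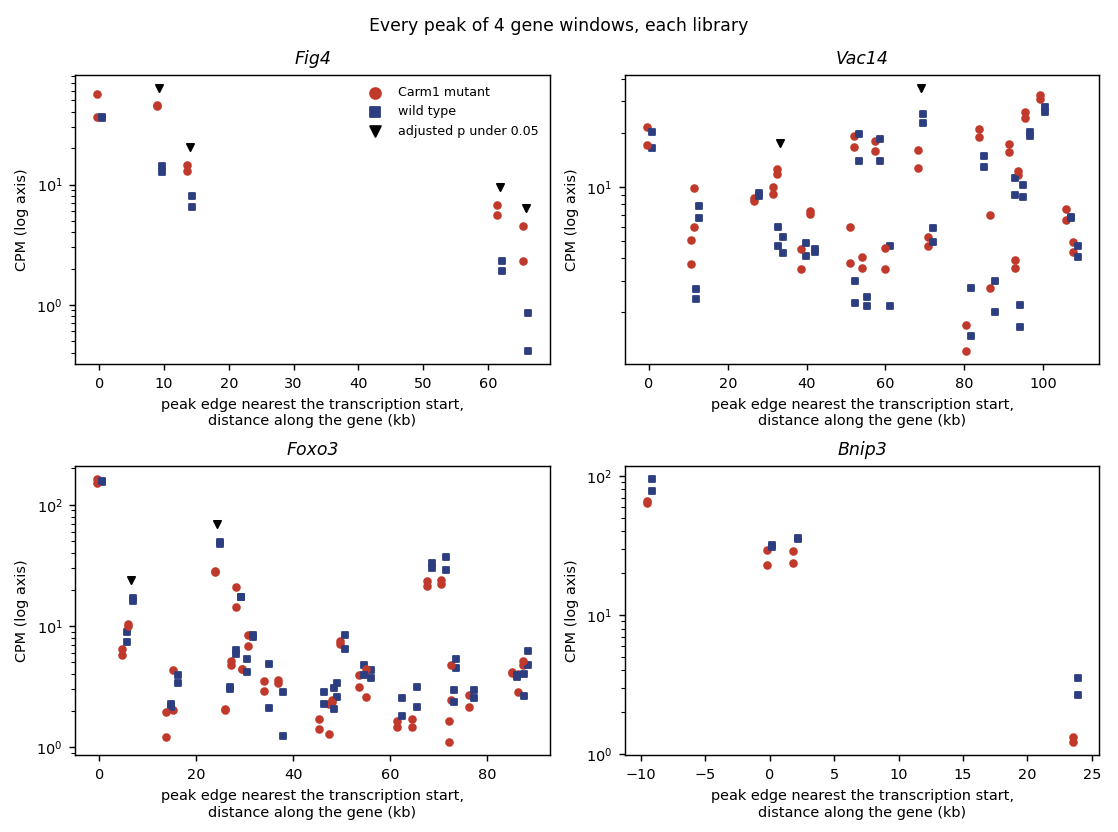
CPM (log axis) of every peak of Fig4, Vac14, Foxo3 and Bnip3 in each library, against distance along the gene from the RefSeq transcription start in kb, with triangles over called peaks. At Fig4 the 4 peaks inside the gene have both mutant libraries above both wild-type libraries, and at Bnip3 all 4 peaks have them below. Over all peaks 25.8% lay above in this way and 25.7% below.

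Vac14, which encodes the scaffold that holds PIKfyve and FIG4 together, had 1 higher and 1 lower call among 25 peaks. The higher peak, 33.2 kb beyond the start (chromosome 8, 110651792 to 110652429), had 12.5 and 11.9 CPM in the mutant against 5.26 and 4.28 CPM in the wild type, a change of 1.35 on the log2 scale (SE 0.25, edgeR adjusted p = 0.00385). The lower peak, at 68.9 kb (110687483 to 110688366), had 12.77 and 16.03 CPM in the mutant against 22.8 and 25.6 CPM in the wild type, a change of -0.75 on the log2 scale (SE 0.19, edgeR adjusted p = 0.0242). The libraries did not overlap at either, and the 2 calls lay in opposite directions in 1 gene. The higher call was lost without wild-type replicate 2 (0.058), and the lower one without wild-type replicate 1 (0.0912) or 2 (0.245). In all 20 of the 25 log2 fold changes were positive, both mutant libraries lay above both wild-type libraries at 12 peaks and below at 2 (25.8% and 25.7% over all peaks), and 8 of the peaks lay also in another gene's window. The window summed to 261.6 and 272.7 CPM in the mutant against 223.1 and 228.0 CPM in the wild type. The libraries were separated, but the difference of 0.22 on the log2 scale (SE 0.08) was not called (edgeR adjusted p = 0.178).

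Pikfyve, which encodes the lipid kinase itself, had no called peak among 4. Its window summed to 158.3 and 150.5 CPM in the mutant against 144.3 and 141.5 CPM in the wild type, and its promoter peak had 38.0 and 39.8 CPM in the mutant against 34.1 and 33.7 CPM in the wild type. Both were separated, with log2 fold changes of 0.08 (SE 0.09, edgeR adjusted p = 0.7) and 0.20 (SE 0.15, edgeR adjusted p = 0.467), neither past the threshold. All 4 of its peaks lie also in the window of Idh1. Mcoln1 summed to 105.6 and 100.6 CPM in the mutant and 113.2 and 111.3 CPM in the wild type, lower in both mutant libraries by -0.15 on the log2 scale (SE 0.10, edgeR adjusted p = 0.451). Over the 4 genes of this group 5 peaks were higher and 1 lower of 37, with a median log2 fold change of 0.23, and 4 of the 5 lay at Fig4.

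**Figure D4:**
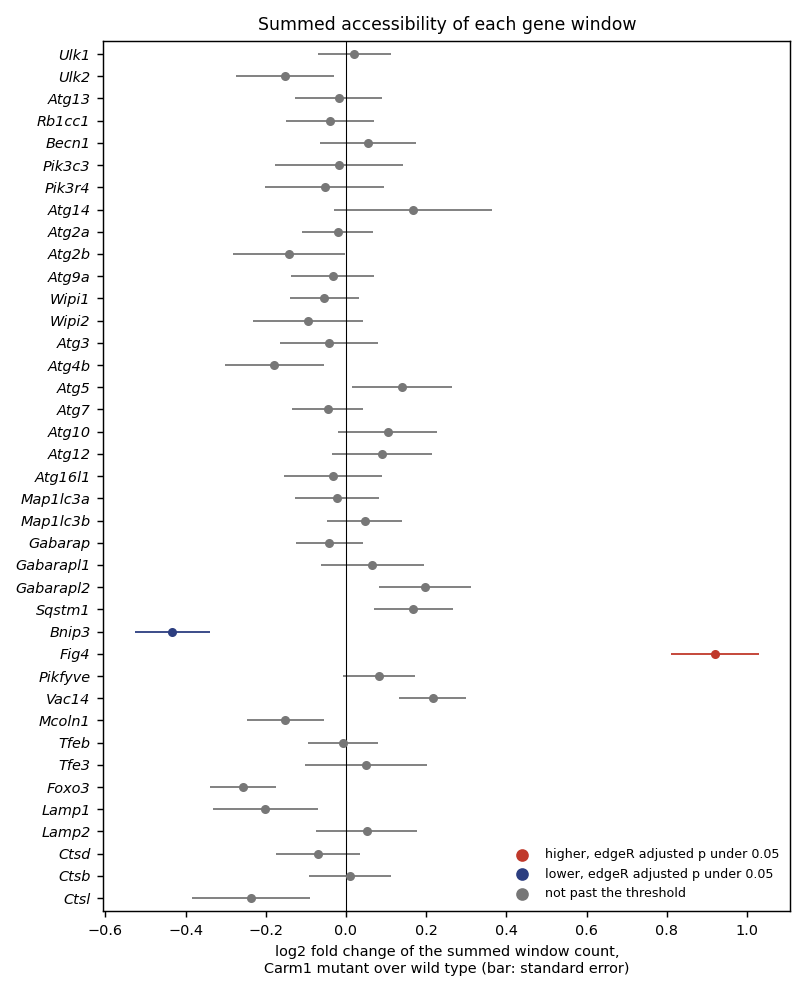
Log2 fold change (Carm1 mutant over wild type) of the counts summed over each gene window, with the standard error as a bar, for 39 genes in order of role. Fig4, at 0.92, and Bnip3, at -0.43, are the coloured points past the threshold.

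Among the transcription factor genes both called peaks were lower and lay in Foxo3, which encodes a forkhead factor known to activate autophagy genes in muscle. The stronger one, 24.3 kb beyond the start in the gene body (chromosome 10, 42250873 to 42252374), had 28.5 and 27.8 CPM in the mutant against 49.6 and 47.3 CPM in the wild type. The other, at 6.5 kb (42268191 to 42270208), had 10.3 and 9.97 CPM in the mutant against 16.01 and 17.13 CPM in the wild type. In each case the mutant libraries lay close together and clearly below the wild type. The log2 fold changes were -0.79 (SE 0.15, edgeR adjusted p = 0.00499) and -0.71 (SE 0.20, edgeR adjusted p = 0.0454). The stronger call was lost without wild-type replicate 1 (0.0716) or 2 (0.0601), with log2 fold changes from -0.82 to -0.75 whichever library was left out. The weaker one was lost without wild-type replicate 1 (0.173) or 2 (0.303), and with DESeq2 (0.0792) or limma voom (0.0539).

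Foxo3 had the most peaks of any member, 29, none shared with another gene's window, and 24 of them had negative log2 fold changes. Both mutant libraries lay below both wild-type libraries at 14, and 25.7% of all peaks did so. The whole window summed to 340.9 and 336.9 CPM in the mutant against 391.3 and 402.6 CPM in the wild type, separated but not past the threshold (-0.26 on the log2 scale, SE 0.08, edgeR adjusted p = 0.0891). A peak 68.2 kb beyond the start had 21.5 and 23.5 CPM in the mutant against 30.04 and 32.87 CPM in the wild type, and one at 71.1 kb had 22.4 and 24.1 CPM in the mutant against 29.2 and 37.0 CPM in the wild type. The mutant libraries were lower at both, short of the threshold (edgeR adjusted p = 0.0872 and 0.0791). Tfeb and Tfe3, the regulators of lysosomal genes, had no called peak among 15 and 3. The Tfeb window summed to 220.9 and 208.4 CPM in the mutant and 219.3 and 203.9 CPM in the wild type, which overlap. Tfe3 summed to 30.6 and 43.9 CPM in the mutant and 35.3 and 35.4 CPM in the wild type. Tfe3 and Lamp2 are X-linked, and summed CPM over 1311 X peaks was 13510 and 14210 in the mutant and 12590 and 12700 in the wild type, and over 25 Y peaks it was 233.2 and 142.6 in the mutant and 131.3 and 74.0 in the wild type. The part of these sums in the values of Tfe3 and Lamp2 was not tested.

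The lysosomal genes had 1 higher and 1 lower call among 26 peaks. The higher peak lay in the gene body of Ctsb, which encodes the cysteine protease cathepsin B (chromosome 14, 63142329 to 63143033). It had 7.66 and 7.82 CPM in the mutant against 2.21 and 2.37 CPM in the wild type, 3.38 times as much, a change of 1.75 on the log2 scale (SE 0.29, edgeR adjusted p = 0.0022). The libraries did not overlap, and the call held whichever library was left out and under every other alternative tried. The peak also lies 2117 bp from Fdft1, which encodes squalene synthase. The other 6 peaks of Ctsb had log2 fold changes from -0.42 to 0.28, and the window sums of 88.2 and 94.2 CPM in the mutant and 91.8 and 85.9 CPM in the wild type overlapped.

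The lower peak lay 2.1 kb before the start of Lamp1 (chromosome 8, 13156648 to 13157066). It had 2.37 and 2.46 CPM in the mutant against 6.05 and 8.26 CPM in the wild type, a change of -1.57 on the log2 scale (SE 0.30, edgeR adjusted p = 0.00589). The call was lost without wild-type replicate 2 (0.0983), and the peak also falls in the flank of Cul4a. The E-box-rich promoter peak of Lamp1, printed and described above, is a separate peak whose values overlapped between genotypes. Lamp2, Ctsd and Ctsl, which encode a second membrane glycoprotein and the proteases cathepsin D and L, had no called peak among 7, 5 and 2. The Ctsl window summed to 31.9 and 25.5 CPM in the mutant and 30.4 and 35.9 CPM in the wild type.

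**Figure D5:**
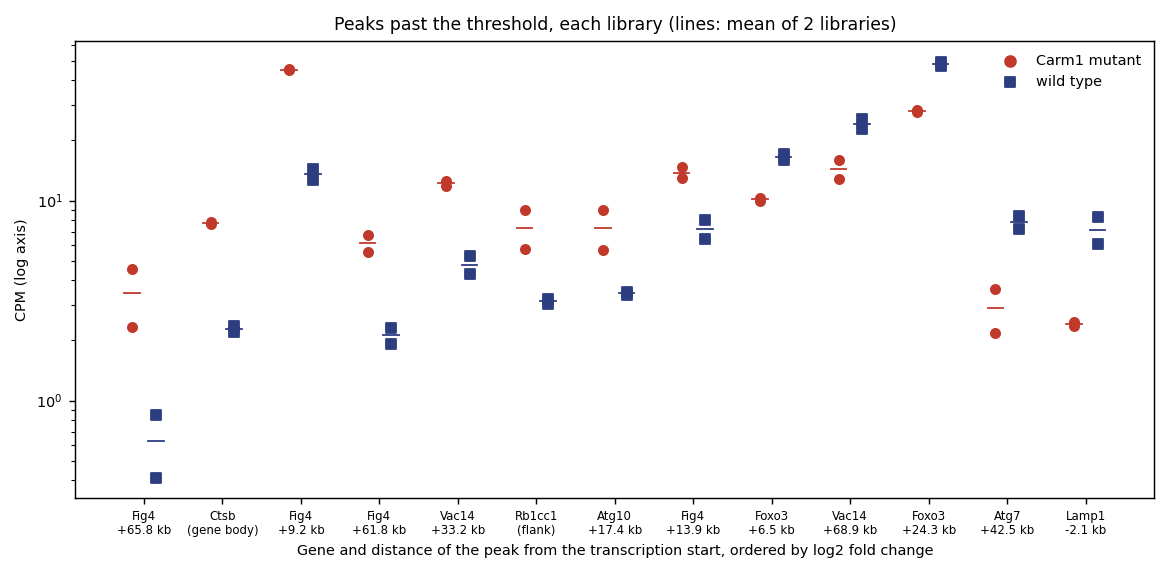
CPM (log axis) of the 13 called peaks in each library, ordered from the highest to the lowest log2 fold change, with lines at the mean of 2 libraries. No mutant value overlaps a wild-type value at any of them, from Fig4 at 65.8 kb beyond its start to Lamp1 at 2.1 kb before it. The peaks were called from these same values, so the separation adds nothing to the calls. Over all peaks 25.8% lay above and 25.7% below without overlap.

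At the other genes of the pathway 4.57% of peaks were called, near the 5.5% over all peaks. Of 350 peaks near 66 further autophagy and lysosome genes, 3 were higher and 13 lower, 0.857% and 3.71% against 3.05% and 2.45% over all peaks, with a median log2 fold change of -0.024. Without mutant replicate 1 the counts were 11 higher and 11 lower. The 3 higher peaks were single ones at Mitf, Vmp1 and Atp6v0a1. The Mitf peak, in a gene of the same factor family as Tfeb, had 20.6 and 15.2 CPM in the mutant against 9.79 and 8.57 CPM in the wild type, while 3 other Mitf peaks were lower. The lower peaks with the smallest p lay at Atg4c, Ctsk and Mitf. Ctsk, which encodes cathepsin K, was the only one of these 66 genes whose window sum was called, with 3.16 and 4.61 CPM in the mutant against 9.90 and 10.1 CPM in the wild type (-1.39 on the log2 scale, SE 0.27, edgeR adjusted p = 0.00678). The Atg4c peak, in a gene of the protease family of Atg4b, had 8.64 and 7.51 CPM in the mutant against 17.9 and 20.6 CPM in the wild type. All 3 peaks at Ctsk also lie in the window of Arnt. The calls at Vmp1, Atp6v0a1 and the higher Mitf peak were each lost when 1 library was left out, with edgeR adjusted p up to 0.161, 0.207 and 0.145. The Atp6v0a1 call was also lost with DESeq2 (adjusted p = 0.105) and limma voom (adjusted p = 0.0579).

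Marker windows of the heart's cell types also differed between libraries. Summed over 8 cardiomyocyte genes they held 5065 and 4286 CPM in the mutant against 4245 and 3836 CPM in the wild type, and over 8 endothelial genes 797.9 and 778.8 CPM in the mutant against 991.0 and 816.1 CPM in the wild type. The libraries of the genotypes did not overlap for either list, with the cardiomyocyte sum higher and the endothelial sum lower in the mutant. The genes within a list went both ways: 6 of 8 cardiomyocyte windows had positive log2 fold changes, with 1 called higher and 1 lower, and 6 of 8 endothelial windows had negative ones, with 1 called lower. Fibroblast windows (8 genes) held 303.2 and 351.5 CPM in the mutant and 275.9 and 307.2 CPM in the wild type, which overlap. Mural windows (7 genes) held 410.9 and 448.6 CPM in the mutant against 373.0 and 381.6 CPM in the wild type. Macrophage and leukocyte windows (6 of 7 genes with a peak) held 437.8 and 427.1 CPM in the mutant against 401.8 and 379.9 CPM in the wild type. Schwann and neuronal windows (5 genes) held 135.3 and 120.3 CPM in the mutant against 101.1 and 100.6 CPM in the wild type. These 3 sums were higher in both mutant libraries, while the median log2 fold change was 0.06 over the mural windows, 0.0067 over the macrophage and leukocyte windows and 0.37 over the Schwann and neuronal windows. Hepatocyte windows (3 of 4 genes), for a cell type the heart lacks, held 81.1 and 76.6 CPM in the mutant and 78.3 and 92.1 CPM in the wild type, which overlap. The leukocyte marker Adgre1 and the hepatocyte marker Alb had no peak. All 8 cardiomyocyte markers had peaks, in keeping with the tissue label. A change in the number of nuclei of a type and a change within those nuclei cannot be told apart in bulk tissue, and the part of the marker lists in the results at Fig4, Bnip3, Foxo3 and the other members was not tested.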

How the data were processed

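ATAC-seq read counts per peak were deposited by the authors as 1 table of raw, unnormalised counts for 4 libraries, per the file headers and the values. FastQC, Bowtie2 and build mm10 are named without versions in the submitters' processing notes; the peak caller, filters, duplicate handling and any transposase shift are steps that no label, note or header records, and they could change which regions were counted. Coordinates are printed as the file gives them. Genes and starts came from RefSeq GRCm38.p6. Peaks were tested in R 4.3.3 with the quasi-likelihood test of edgeR 4.0.16 (genotype only, TMM, filterByExpr, which removed 0 peaks, common biological coefficient of variation 0.166). Counts summed per gene window were tested the same way over 16369 protein-coding genes, and a peak may fall in several windows. For that test library totals and TMM scaling were computed from the window sums. Printed window CPM use the scaling of the peaks, so a ratio of window CPM can differ slightly from the fitted log2 fold change. Standard errors come from the test statistic, and procedures were tested on simulated data. Libraries of a genotype differed by more than counting noise (chi-square per degree of freedom 5.76 in the mutant, 4.09 in the wild type). Alternatives were RLE and total-count scaling, other filters, DESeq2 1.42.0, limma 3.58.1 voom, a looser threshold, a replicate block, each library left out, and narrower windows. Leaving out 1 library leaves a lone one, assumed to vary like the other pair. Named in the text are every called member peak, promoter peaks, called window sums and the other pathway peaks with the smallest p; further peaks of Bnip3, Foxo3, Vac14 and Pikfyve, and further window sums, were named after their values were seen. Members and gene lists were chosen with earlier results of these data known.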

Additional observations from a re-analysis of the deposited data

How the results depend on the processing

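Scaling had little effect: with RLE or total counts the numbers of called member peaks stayed within 1.5 times those reported, all 13 calls were kept, and the median over all peaks moved by less than 0.04 (-0.036 with total counts). Of the called peaks and window sums, the other peaks of Bnip3 and Fig4, the promoters of Becn1 and Gabarapl2 and the windows of Foxo3 and Vac14, none of those recomputed changed direction; other named values were not recomputed. Most lost member calls came from leaving out a wild-type library, while promoter, window and higher pathway calls were gained without a mutant one. Over the 4 fits that leave out 1 library, member peaks numbered from 3 to 12 higher and from 0 to 12 lower, against 8 and 5; without wild-type replicate 1, 7 of the 13 calls were lost and 4 higher and 2 lower remained in number, and without wild-type replicate 2, 10 were lost. Member promoter peaks called numbered from 0 to 2, other pathway peaks from 0 to 11 higher and from 5 to 19 lower, called windows from 1 to 3 higher and from 0 to 2 lower, and all peaks called from 1006 to 8439, against 4839. Only 2 of the 13 calls, those at Fig4 9.2 kb beyond the start and at Ctsb, held under every alternative. DESeq2 called 2373 peaks in all and 8 lower pathway peaks. At an adjusted p under 0.1 there were 8951 calls, 13 higher and 10 lower member peaks, 9 higher pathway peaks and 2 lower windows. With the gene body alone 0 windows were lower. With the replicate number as a block edgeR called 9724 peaks, 13 higher and 11 lower member peaks, 10 higher pathway peaks and 2 lower windows, those of Bnip3 and Foxo3 (edgeR adjusted p = 0.0259 for Foxo3); 3 of the 4 Bnip3 peaks were called there (0.0247, 0.0427 and 0.0247), and lower pathway peaks numbered 19. The numbers are not known to pair the libraries: the correlation across 87948 peaks of replicate 1 minus replicate 2 between genotypes was 0.106, and 2 pairs are too few to decide. Counts of 8 to 75 per library at the weakest called peak limit its precision.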
